A study of Mus musculus with 3 samples.

Results

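Type I interferon-stimulated genes were described in 3 RNA-seq libraries of mouse activated regulatory T cells. The 45 genes form a list of names with no threshold on measured values, drawn up with earlier results of these data known, out of 55536 mouse genes of the annotation, and each was found in the tables. They fell into 8 function classes, namely nucleic acid sensors, the OAS, IFIT and PARP families, membrane-bound restriction factors, GTPases with nucleotide or RNA enzymes, ubiquitin-like and ubiquitin enzymes, and other members. All 3 libraries came from primary cells of 1 male adult mouse, aged 4 months, of the strain Foxp3CreERT2 x Rosa26YFP, a name that joins a tamoxifen-inducible Cre under Foxp3 with a YFP reporter at Rosa26. The labels call the libraries technical replicates 1, 2 and 3 of biological replicate 1, give a bone marrow hematopoietic origin, and describe polyA-selected RNA sheared to fragments of 100 to 300 bp. Neither the sort or gate, nor the activating agent, nor any tamoxifen treatment is stated in the labels. The libraries formed 1 group with no control, so levels and differences between libraries were measured and no condition was compared with another. The p-values therefore measure only the spread between these libraries, which may be technical.

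Type I interferons bind a receptor made of Ifnar1 and Ifnar2, whose kinases Jak1 and Tyk2 activate the transcription factor complex ISGF3, to which Stat2 and Irf9 belong. ISGF3 binds the interferon-stimulated response element (ISRE) in promoters and switches on a large set of antiviral genes. Several of these genes also respond to interferon gamma, and many T cells hold a low level of them without infection.

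The first question was how the promoters of genes that moved together between libraries looked in sequence. The 10-base ISRE core, GAAA and GAAA with any 2 bases between them, was searched on both strands (on the other strand it reads TTTC, any 2 bases, TTTC), overlapping matches included, in RefSeq windows from 250 bases before to 50 bases after each start (GRCm38.p6). Of the 45 genes, 35 had a window, and 16 of these 35 (45.7%) held at least 1 match, against 1131 of all 32851 windows (3.44%) and 1079 of 27025 genes with a window (3.99%). Dhx58, Ifi27l2a, Mx1, Mx2, Oas2, Parp14, Parp9, Rtp4, Usp18 and Zbp1 had no window. A match is a description of letters and not a measured binding site.

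The 200 bases before the RefSeq start are shown for 7 genes, 5′ to 3′ on the strand of the gene, with motif matches in capitals. Ifit1 and Isg15 are shown because they were among the members that differed most between libraries, and Ifitm2 because it moved the other way. The pairs Oas1a with Oas1g and Ifit3 with Ifit3b are near copies with different levels. Ifit1 (chr19:34640689-34640888, plus strand) has matches that begin 104 and 85 bases before the start. Isg15 (chr4:156200819-156201018, minus strand) has 3 overlapping matches that begin 78, 72 and 66 bases before it. Oas1a (chr5:120907526-120907725, minus strand) has overlapping matches at 20 and 14 bases, and Oas1g (chr5:120887614-120887813, minus strand) at 18 and 12 bases. Ifit3 (chr19:34583329-34583528, plus strand) has matches at 156 and 122 bases and Ifit3b (chr19:34607757-34607956, plus strand) at 188 and 154 bases, so both pairs begin 34 bases apart. Ifitm2 (chr7:140955962-140956161, minus strand) has 1 match at 46 bases.
Ifit1: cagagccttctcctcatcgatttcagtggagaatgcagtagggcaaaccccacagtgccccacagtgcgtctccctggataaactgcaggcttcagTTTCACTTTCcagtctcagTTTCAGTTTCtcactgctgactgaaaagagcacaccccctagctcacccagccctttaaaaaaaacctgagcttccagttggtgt
Isg15: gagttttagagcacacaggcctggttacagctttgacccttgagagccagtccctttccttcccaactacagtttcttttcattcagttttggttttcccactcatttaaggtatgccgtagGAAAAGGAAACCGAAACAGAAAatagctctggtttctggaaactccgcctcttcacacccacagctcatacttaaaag
Oas1a: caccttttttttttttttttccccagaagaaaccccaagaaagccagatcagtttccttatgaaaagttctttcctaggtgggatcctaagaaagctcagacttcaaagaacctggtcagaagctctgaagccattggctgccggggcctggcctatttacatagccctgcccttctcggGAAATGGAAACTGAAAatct
Oas1g: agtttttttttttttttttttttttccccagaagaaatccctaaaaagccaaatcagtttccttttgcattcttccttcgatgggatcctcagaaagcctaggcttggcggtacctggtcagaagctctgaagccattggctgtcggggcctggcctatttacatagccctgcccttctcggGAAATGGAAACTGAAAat
Ifit3: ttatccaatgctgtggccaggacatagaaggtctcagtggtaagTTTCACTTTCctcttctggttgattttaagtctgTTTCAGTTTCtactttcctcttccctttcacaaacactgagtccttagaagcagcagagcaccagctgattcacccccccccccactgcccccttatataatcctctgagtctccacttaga
Ifit3b: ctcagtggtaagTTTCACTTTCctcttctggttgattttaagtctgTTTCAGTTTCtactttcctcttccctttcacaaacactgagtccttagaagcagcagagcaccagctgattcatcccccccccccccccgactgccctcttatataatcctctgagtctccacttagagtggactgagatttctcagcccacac
Ifitm2: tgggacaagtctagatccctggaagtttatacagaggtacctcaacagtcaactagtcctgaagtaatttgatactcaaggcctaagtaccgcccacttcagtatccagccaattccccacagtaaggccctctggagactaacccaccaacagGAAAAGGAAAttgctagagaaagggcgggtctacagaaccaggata
The Oas1a and Oas1g stretches were identical at 172 of 206 aligned columns (83.5%), and those of Ifit3 and Ifit3b at 167 of 232 (71.98%). Columns with a gap count as not identical. The Ifit3 and Ifit3b stretches are shifted against each other, as their first matches begin 156 and 188 bases before the start. Their unpaired ends lower the percentage, so these percentages do not rank the pairs by similarity. Bst2, Ddx58, Eif2ak2, Ifih1, Ifitm3, Oas3, Phf11b, Rsad2 and Trim30a were the other members with a match.

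The libraries held 10981924, 9700630 and 6667391 expected counts (estimated fragments) in replicates 1, 2 and 3. The regulatory T cell genes Foxp3, at 29.5, 28.7 and 49.8 TPM (a level scaled within a library and per transcript length), Il2ra, at 239, 272 and 236.5 TPM, and Ctla4, Ikzf2, Tnfrsf18 and Izumo1r were present in all 3 libraries. Ctla4, an inhibitory receptor gene, was at 190, 249.55 and 612 TPM and so was 3.17-fold higher in replicate 3 than in replicate 1 (edgeR trended dispersion, Benjamini-Hochberg adjusted p = 4.09e-05), the library in which most of the 45 genes were lowest. Ikzf2, Tnfrsf18 and Izumo1r were lowest in replicate 3. Markers of other cells were also read, and haemoglobin genes stood apart in replicate 1, with a summed level of 795 TPM for 5 erythroid markers against 5.30 and 23.4 TPM. The summed level of 6 plasma cell markers was 110, 73.4 and 178 TPM in the 3 libraries. Of these Jchain was at 43.4, 4.7 and 69.6 TPM (edgeR trended dispersion, Benjamini-Hochberg adjusted p = 1.66e-05) and Mzb1 at 9.4, 4.65 and 30.0 TPM (adjusted p = 0.0141). Xbp1, the highest of them on average, was at 43.7, 38.65 and 50.1 TPM. The 6 B cell markers summed to 109, 77.9 and 90.0 TPM, and 7 markers of monocytes, macrophages or neutrophils to 21.7, 4.83 and 22.3 TPM. For plasmacytoid dendritic cells, which make type I interferon, 6 markers summed to 123, 119 and 68.5 TPM, most of it from Bst2, itself one of the 45 genes. Of the other 5, Ccr9, a homing receptor gene that T cells also use, was at 28.6, 34.1 and 17.8 TPM and Tcf4 at 5.55, 5.66 and 11.5 TPM. Siglech was at 0, 0.07 and 0.09 TPM (0.462, 0.538 and 0.560 TPM in the second quantification), and Klk1 and Cox6a2 were at 0 in all 3 libraries. Clec9a of dendritic cells was at 0 in all 3 libraries of the main table (0.172, 0.0194 and 0 TPM in the second quantification), and 6 dendritic cell markers summed to 2.96, 3.13 and 3.69 TPM.

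The interferon-stimulated genes spanned a wide range of levels. Ifi27l2a, which encodes a small hydrophobic protein, led at 1083 ± 501 TPM (SD, n = 3), rank 148 among all genes. It was followed by Sp100, a nuclear body protein gene, at 661 ± 254 TPM, Samhd1, a dNTP hydrolase gene, at 511 ± 83.0 TPM, and Ifi47, an interferon-inducible GTPase gene, at 329 ± 98.0 TPM. Here and below n counts libraries of the same mouse, so the SD is the spread between libraries and says nothing of the spread between mice. In all, 7 members were at a mean of 100 TPM or more, 26 at 10 to under 100 TPM and 12 under 10 TPM, and 41 of 45 were at 1 TPM or more in every library. Oas1g was the lowest, with 0, 1.78 and 0 counts in the main table, which is under the floor of 3 counts that a count of 0 allows per library. The median of log2(TPM + 1) over the 45 members was 5.41, 5.04 and 4.39 in replicates 1, 2 and 3, against 3.89, 4.01 and 3.93 over the 12997 genes that averaged 10 counts or more.

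**Figure D1:**
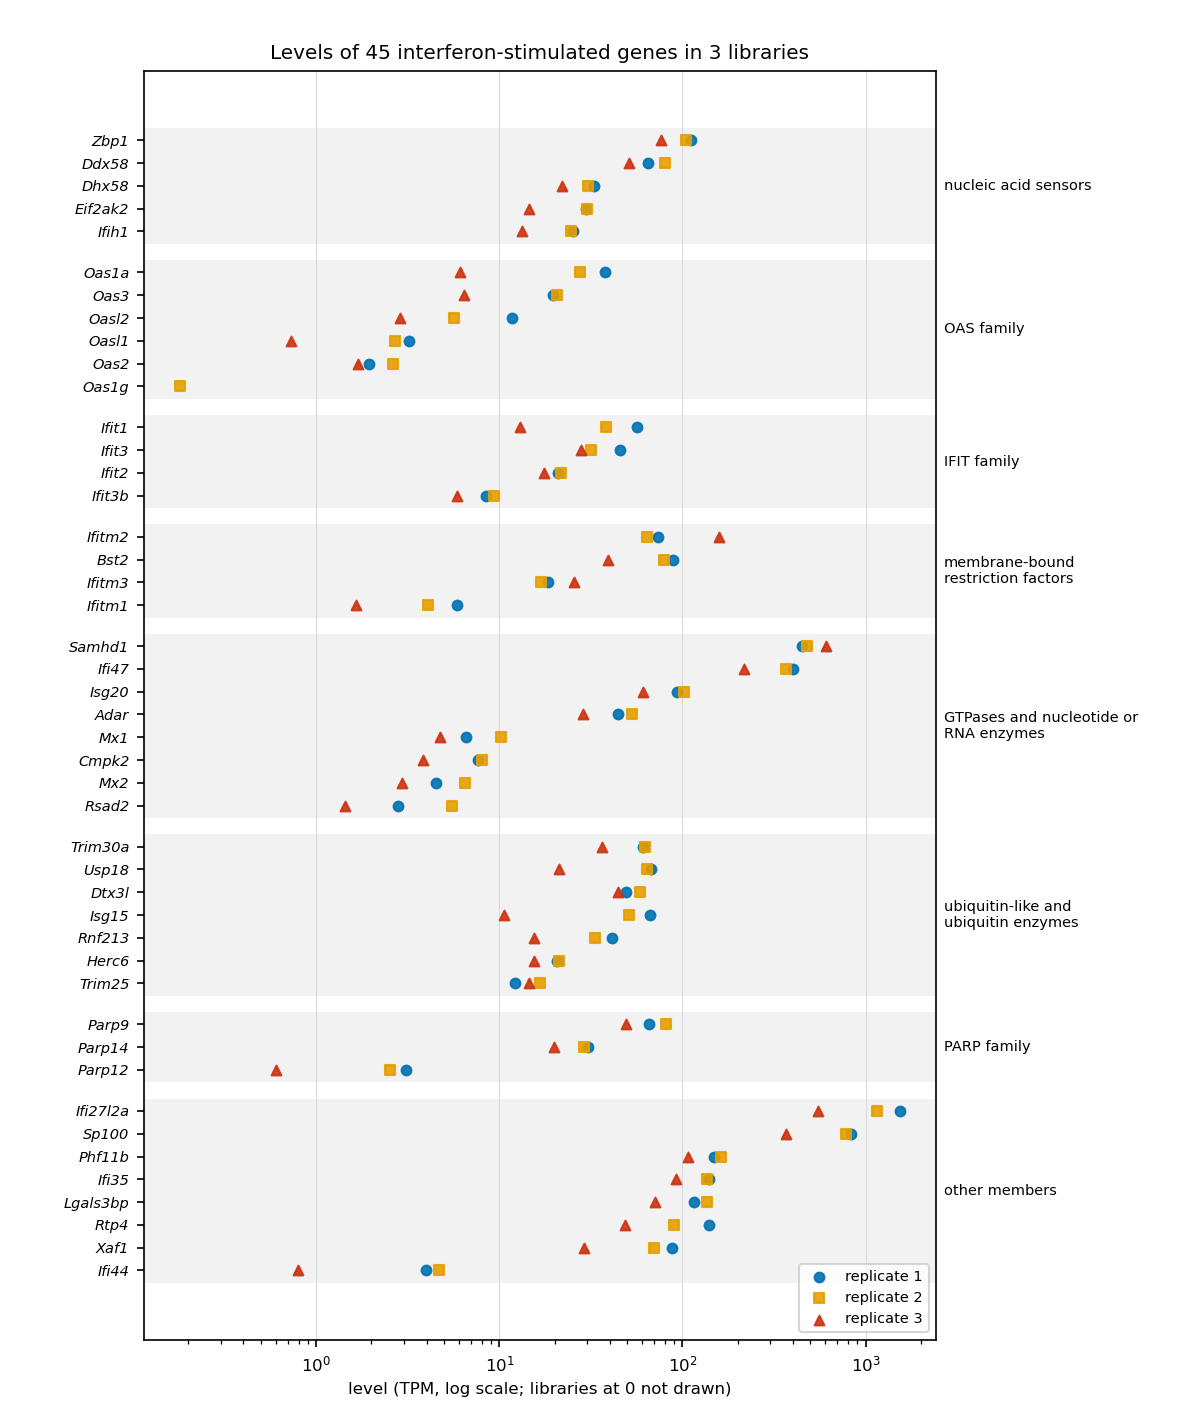
Level of each of the 45 genes in each library, in TPM on a log axis, grouped by function class and ordered by mean level. The red triangles of replicate 3 lie left of the other libraries for most genes, with Ifitm2, Ifitm3 and Samhd1 as exceptions on their right, and Trim25 in between.

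The libraries did not hold these genes at equal levels: the genes were lowest in replicate 3 as a group. On CPM, counts scaled to library size by the TMM method, 41 of the 44 members with a mean count of at least 10 were lowest in replicate 3, where 40.7% of all 12997 tested genes were lowest. The exceptions were Ifitm2, Ifitm3 and Samhd1, which were highest in replicate 3, as were 40.6% of all tested genes. Replicate 1 was highest for 29 members (31.2% of all tested genes) and replicate 2 for 12 (28.2%). No member was lowest in replicate 1 (30.4% of all tested genes), and 3 were lowest in replicate 2 (28.9%). In a bulk sample, fewer cells holding a transcript and less of it per cell cannot be told apart.

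The median deviation from the gene's own mean was 0.37, 0.19 and -0.53 on the log2 scale in replicates 1, 2 and 3, against 0.01, 0.00 and 0.01 for all tested genes. The gap between the highest and the lowest library had a median of 0.94 (log2) over the members and 0.51 over all tested genes. It exceeded 1, a 2-fold difference, in 20 of 44 members and in 18.4% of all tested genes. Replicate 3 was also the shallowest library, and the 6 T cell markers Cd3d, Cd3e, Cd3g, Cd4, Trac and Lck were all lowest there, with a summed level of 7890, 7850 and 5027 TPM and a median deviation of -0.39. The part of depth, of the T cell genes and of the markers of other cells, plasma and erythroid cells among them, in the member values was not tested.

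**Figure D2:**
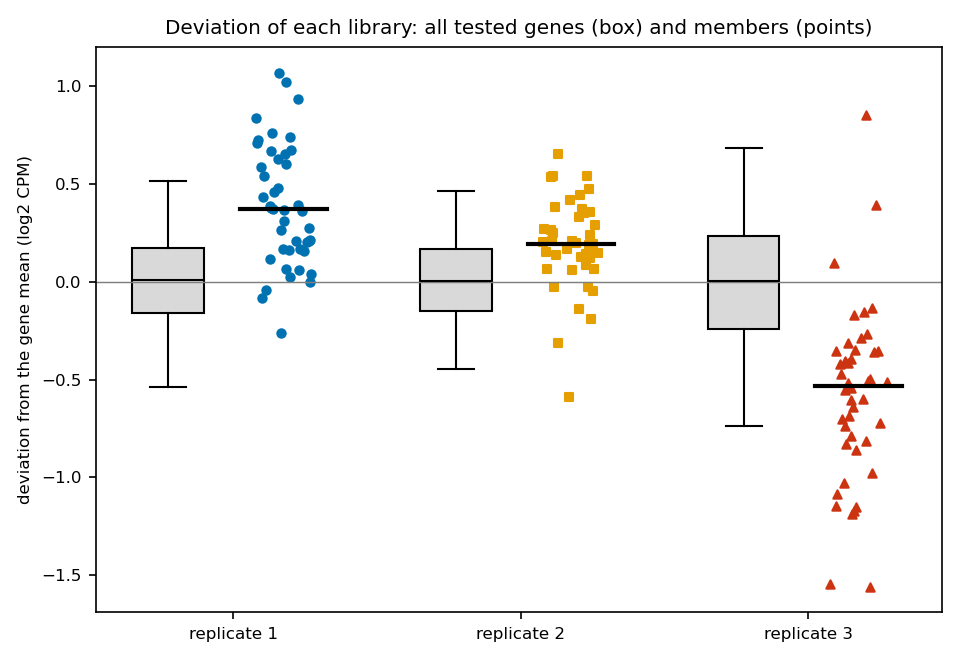
Deviation of each library from the gene mean (log2 CPM), with all 12997 tested genes as a box (quartiles and median line, with the values beyond the whiskers not drawn) and the 44 tested members as points with their median as a bar. The member medians sit at 0.37, 0.19 and -0.53 while the boxes are centred near 0.

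Each gene was tested for a difference between libraries beyond sampling noise, by a chi-square test on its counts with Benjamini-Hochberg adjustment over all tested genes. Of 44 members 42 varied (adjusted p below 0.05), and so did 65.3% of all tested genes, so that most abundant genes passed this test. Ifit2 (adjusted p = 0.110) and Ifit3b (adjusted p = 0.0537) did not, although both passed in the second quantification (adjusted p = 0.00299 and 0.0427) and in the M4 counts (0.00657 and 0.0434). A stricter form of the test adds the trended dispersion that edgeR estimated from the same 3 libraries, which holds the very differences tested. It called 1.31% of all genes and 2 of 44 members, Ifit1 (adjusted p = 0.0335) and Ifitm2 (adjusted p = 0.0489), and Oas1a lay just outside (adjusted p = 0.0502). At an unadjusted p below 0.05 the counts were 10 of 44 members and 5.5% of all genes. Of the 170 genes called by the stricter test 142 were highest in replicate 3, while Ifit1 was lowest there.

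**Figure D3:**
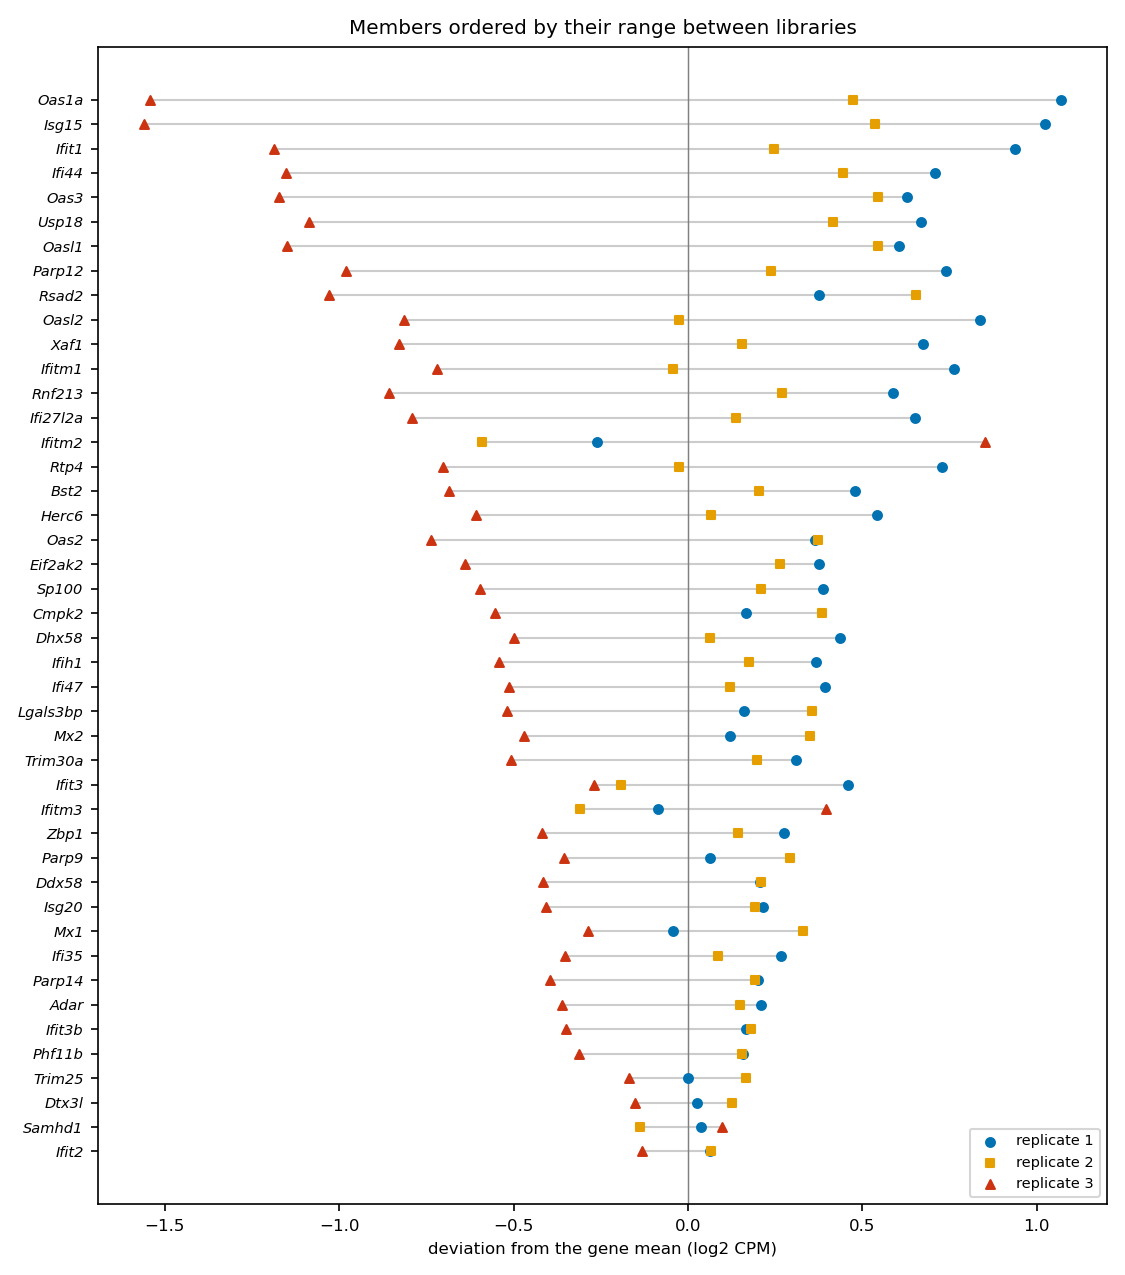
Deviation of each library from the gene mean (log2 CPM) for the 44 tested members, ordered by the gap between their highest and lowest library. The gap runs from 2.61 for Oas1a at the top to 0.20 for Ifit2 at the bottom, and the red triangles of replicate 3 are at the left end in all but Ifitm2, Ifitm3 and Samhd1.

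The 5 nucleic acid sensors detect foreign or misplaced RNA and DNA, and all 5 varied and were lowest in replicate 3, with a median deviation of -0.50 there. Zbp1, a sensor of Z-form nucleic acid that can start cell death, was highest of the class, at 111, 105 and 76.3 TPM in replicates 1, 2 and 3. Eif2ak2, the kinase PKR that halts translation on double-stranded RNA, was at 29.6, 30.1 and 14.6 TPM, a 2.03-fold gap and the widest of the class. Ifih1, the long-RNA sensor MDA5, was lowest of the class, at 25.2, 24.5 and 13.2 TPM. The related helicase genes Ddx58 (RIG-I) and Dhx58 (LGP2) had means of 65.2 ± 14.4 and 28.4 ± 5.82 TPM. On scaled counts Dhx58 had replicate 2 between the others, with deviations of 0.44, 0.06 and -0.50, while Ddx58 had replicates 1 and 2 close together, at 0.21, 0.21 and -0.42.

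Enzymes of the OAS family make short oligoadenylates that activate RNase L, though not every listed member need do so. The class showed the widest gaps of the 8 classes, with a median of 1.75 (log2). All 5 tested members varied and were lowest in replicate 3, at a median deviation of -1.15. Oas1a, on chromosome 5 from 120896256 to 120907521 (mm10), had 579, 345 and 57 counts, which correspond to 37.9, 27.4 and 6.11 TPM. The gap between replicates 1 and 3 was 6.25-fold, the widest of all members (chi-square on counts, Benjamini-Hochberg adjusted p = 1.45e-49). Oas3, which makes oligoadenylates on long RNA, was at 19.7, 20.7 and 6.39 TPM. Oas2, Oasl1 and Oasl2 had means of 2.08 ± 0.487, 2.21 ± 1.30 and 6.74 ± 4.52 TPM. Oas1g, whose upstream sequence above is near that of Oas1a, was under the floor of 3 counts in every library of the main table. The second quantification gave it 9.66, 6.41 and 1.94 counts in replicates 1, 2 and 3, with 0 in coding transcripts. Of the 31-base words of Oas1a 68.8% also occur in other genes' transcripts, mostly those of Oas1g, so some reads can stem from either copy. The deposited posterior SD of the Oas1a count was 1.34, 1.89 and 1.07 in replicates 1, 2 and 3, small beside its counts. Uncertainty that this SD leaves out was not tested.

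IFIT proteins bind viral RNA ends through helical repeats, and their genes lie together on chromosome 19 from 34550694 to 34650009 (mm10). Ifit1, which recognises caps lacking methylation, was highest of the class on average and widest in its gap, with 1247, 697 and 175 counts, or 56.2, 38.2 and 13.0 TPM. Replicate 2 lay between the others, and the gap between replicates 1 and 3 was 4.39-fold. Ifit2, in the same cluster, was at 20.9, 21.7 and 17.4 TPM, and its 1.15-fold gap was the narrowest of all members. Ifit3 was at 45.8, 31.8 and 27.8 TPM and Ifit3b, lowest of the class, at 8.47, 9.40 and 5.90 TPM. These near copies share 61.8% and 55.2% of their 31-base words with other genes, mainly each other, so some reads can stem from either. The deposited posterior SD of the count was 7.49, 6.63 and 4.28 in replicates 1, 2 and 3 for each of them. Beside it stood 642, 368 and 238 counts of Ifit3 and 138, 126 and 58.7 counts of Ifit3b. In the IFIT class 2 of 4 members varied, and all 4 were lowest in replicate 3.

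The membrane-bound restriction factors split into opposite patterns, although all 4 varied. Ifitm2, on chromosome 7 from 140954837 to 140955987 (mm10), blocks virus entry from endosomes and had 315, 226 and 421 counts, or 73.9, 63.6 and 158 TPM. It was 2.73-fold higher in replicate 3 than in replicate 2 (chi-square on counts, Benjamini-Hochberg adjusted p = 1.07e-42). Ifitm3, a relative with the same activity, also peaked in replicate 3, at 18.3, 16.9 and 25.5 TPM, with a smaller gap of 1.65-fold (adjusted p = 0.0179). That call was lost with all genes with any count (adjusted p = 0.0792) and without replicate 2 (adjusted p = 0.0633) or replicate 3 (adjusted p = 0.515). Ifitm1, the surface member of the family, went the other way, at 5.89, 4.09 and 1.64 TPM, from only 27, 13 and 5 counts. Bst2, the tether that holds budding virus on the cell, was at 88.7, 79.6 and 39.1 TPM. Ifitm2 shares 55.5% of its 31-base words with other genes, and Gm45717, the partner with the largest share and an exon overlap on the same strand, had 0 counts in every library.

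Among the GTPases and nucleotide or RNA enzymes all 8 varied and 7 were lowest in replicate 3. Ifi47, of a GTPase family that acts on the vacuoles of intracellular pathogens, was at 402, 366 and 217 TPM. Rsad2 (viperin), which makes a chain-terminating nucleotide, was the lowest of the class and the widest in its gap, at 2.79, 5.54 and 1.44 TPM, a 3.37-fold difference of scaled counts between replicates 2 and 3. Its neighbour on chromosome 12, Cmpk2, a nucleotide kinase gene, was at 7.67, 8.04 and 3.82 TPM. Both were highest in replicate 2. Mx1 and Mx2, dynamin-like GTPases that trap viral components, were at 7.15 ± 2.79 and 4.62 ± 1.77 TPM, also with replicate 2 highest. Coding transcripts held 37.7, 1.26 and 0 of the 114, 134 and 59 Mx1 counts in the main and 74.5, 24.5 and 17.0 counts in the second quantification, the rest being in transcripts annotated as noncoding or decayed. Mx2 is annotated as a polymorphic pseudogene. Its coding transcripts held 0, 0 and 29.7 of 77, 82 and 31 counts in the main and 0, 0 and 27.9 counts in the second quantification. In replicates 1 and 2 of the main quantification 73.55 and 73.87 counts fell to Mx2-202, a transcript with that annotation. Isg20, a ribonuclease gene, was at 85.6 ± 21.7 TPM.

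Adar, which edits adenosine to inosine in double-stranded RNA, was at 44.5, 53.2 and 28.4 TPM. Its reads were split over several coding transcripts, and the quantifications disagreed on the split. Adar-203, with 1178 codons, took 56.8%, 29.3% and 78.7% of the gene's transcripts in replicates 1, 2 and 3 by the deposited percentages and 57.6%, 55.8% and 68.8% in the second quantification. Adar-202, a shorter form of 930 codons, was at 5.78%, 23.3% and 0% in the former and at 3.01%, 2.47% and 7.02% in the latter. The order of the libraries for the short form therefore depended on the quantification, and no difference in isoform use is given.

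Samhd1, which depletes the nucleotides that reverse transcription needs, was the most abundant exception to the common order, at 451, 476 and 605 TPM. On scaled counts its gap was 1.18-fold, with replicate 3 highest and replicate 2 lowest (chi-square on counts, Benjamini-Hochberg adjusted p = 2.16e-19). The transcripts of the gene did not follow one order. Coding transcripts held 691, 599 and 583 scaled CPM in replicates 1, 2 and 3, so they were lowest in replicate 3 but close to replicate 2. Over all genes with a coding transcript, coding transcripts held 819270, 803571 and 767131 scaled CPM, also lowest in replicate 3. Transcripts annotated as retaining an intron held 33.9, 44.7 and 180 scaled CPM. Their share of the gene's counts was 4.43% (95% Wilson interval 4.00 to 4.89) in replicate 1, 6.59% (6.02 to 7.21) in replicate 2 and 22.5% (21.4 to 23.7) in replicate 3. The intervals reflect counting error alone, since the reads carry no molecular identifiers and several can stem from the same molecule.

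The second quantification gave the same order for Samhd1, with 625, 526 and 511 scaled CPM in coding transcripts and 44.3, 49.5 and 166 in retained-intron transcripts. The transcript Samhd1-208 carried most of the difference, with 155, 156 and 897 counts in the main and 224, 216 and 1085 in the second quantification. Over all genes with a coding transcript the retained-intron share was 6.20%, 6.77% and 8.15% in replicates 1, 2 and 3. Over the members without Samhd1 it was 1.73%, 2.08% and 2.72%. Herc6, a ligase gene for Isg15, stood at 8.88% (6.96 to 11.3), 15.98% (12.8 to 19.7) and 31.02% (24.8 to 37.97), and was chosen for mention after its values were seen. Other members differed, as Eif2ak2 was at 7.81%, 7.46% and 1.89% and Parp12, from few counts, at 15.9%, 20.1% and 0%. Of the 22 members with any retained-intron count the share was highest in replicate 3 for 12, in replicate 2 for 4 and in replicate 1 for 6 (in the second quantification 17, 4 and 3 of 24). How many of all genes had their highest share in replicate 3 was not counted, so these member counts have no background to be read against. Differences in share were not tested.

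**Figure D4:**
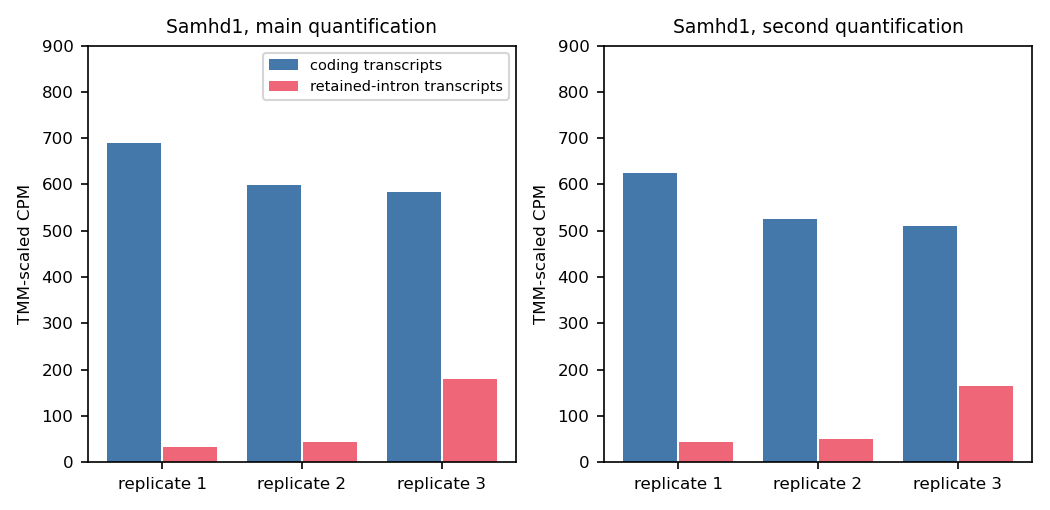
TMM-scaled CPM of Samhd1 in coding and in retained-intron transcripts, 1 bar per library with no replicate error, for the main (left) and the second (right) quantification. Coding transcripts are lowest in replicate 3 in both panels, and retained-intron transcripts are highest there, at 180 against 33.9 and 44.7 in the main panel.

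All 7 ubiquitin-like and ubiquitin enzymes varied and were lowest in replicate 3 on scaled counts. Isg15, a ubiquitin-like modifier on chromosome 4 from 156199424 to 156200818 (mm10), had 343, 220 and 34 counts, or 66.4, 51.2 and 10.6 TPM. Its 6.21-fold gap between replicates 1 and 3 was close to that of Oas1a (chi-square on counts, adjusted p = 1.66e-28; with the edgeR trended dispersion, adjusted p = 0.141). Usp18, the protease that removes Isg15 and also restrains the receptor, was at 67.2, 64.0 and 21.3 TPM. Rnf213, a giant ubiquitin ligase, was at 41.5, 33.4 and 15.5 TPM. Trim30a was highest of the class on average, at 61.1, 62.2 and 36.4 TPM. Trim25, which ubiquitinates RIG-I, was lowest, at 12.1, 16.6 and 14.5 TPM, so that replicate 1 was lowest by TPM while replicate 3 was lowest on scaled counts, by 1.26-fold against replicate 2.

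The PARP family attaches ADP-ribose to proteins, and its 3 members varied and were lowest in replicate 3. Parp9, which works in a complex with the ligase Dtx3l, was at 65.25, 81.0 and 49.2 TPM, and Dtx3l at 49.3, 58.4 and 44.2 TPM. These neighbours on chromosome 16 overlap in an exon on opposite strands, and the labels do not state whether counting used strand. Parp12 was lowest of the class and had the widest gap, 3.63-fold from 59, 37 and 10 counts. Parp14 was at 26.4 ± 5.65 TPM.

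The 8 other members all varied and were lowest in replicate 3, at a median deviation of -0.65. Ifi27l2a was at 1542, 1159 and 549 TPM, a 2.72-fold gap between replicates 1 and 3 (chi-square on counts, Benjamini-Hochberg adjusted p = 2.42e-177; with the edgeR trended dispersion, adjusted p = 0.283). Sp100 was at 833, 779.8 and 369.65 TPM. Xaf1, a partner of the apoptosis inhibitor XIAP, was at 87.4, 69.5 and 28.9 TPM, and Rtp4, a chaperone gene of receptors, at 140.0, 90.0 and 48.6 TPM. Ifi44 was lowest and had the widest gap of the class, 3.93-fold from 83, 62 and 13 counts. Lgals3bp, Ifi35 and Phf11b were at 107 ± 33.0, 123 ± 27.0 and 139 ± 28.4 TPM.

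The signalling pathway around these genes was read from a list of 50 genes, of which 30 had a mean count of at least 10. Of these 30, 26 varied beyond sampling noise (65.3% of all tested genes) and 21 were lowest in replicate 3 (40.7% of all tested genes). All 17 type I interferon ligand genes, Ifnb1 and the Ifna genes among them, had 0 counts in every library of the main table, which allows up to 3 counts, or 0.273, 0.309 and 0.450 CPM in replicates 1, 2 and 3. Of the 17 genes, 3 were not at 0 throughout in the other deposited tables. Ifnk had 0, 2 and 1 and Ifna14 0, 0 and 2 counts in the M4 table, all under the floor, and in the second quantification Ifnk was at 0, 0.381 and 0.135 TPM and Ifna16 at 0, 0 and 0.127 TPM. The type III genes Ifnl2 and Ifnl3 were at 0 in all tables, and their receptor gene Ifnlr1 was at 0 in the main table and at 0.0235, 0.110 and 0.0922 TPM in the second quantification. Ifng, the type II ligand, was at 7.68, 13.5 and 5.11 TPM, lowest in replicate 3.

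Both chains of the type I receptor were present, Ifnar1 at 71.1, 95.5 and 65.8 TPM and Ifnar2 at 38.6, 39.1 and 40.1 TPM. Ifnar2 did not vary beyond sampling noise (chi-square on counts, adjusted p = 0.318). Ifngr1, the ligand-binding chain for interferon gamma, ran opposite to most members, at 219.8, 356 and 726 TPM. It was the only pathway gene called with the edgeR trended dispersion (adjusted p = 0.000581). Downstream, Irf9 was at 129, 123 and 70.3 TPM and Stat2 at 51.9, 57.3 and 40.9 TPM, and both were lowest in replicate 3. The kinase genes differed from each other, with Tyk2 lowest in replicate 3 at 47.8, 47.8 and 33.9 TPM, and Jak1, the highest of its group, lowest in replicate 1, at 261, 356 and 280.2 TPM.

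Of the 4 interferon regulatory factors upstream, Irf1 was highest at 241, 254 and 167 TPM, and all 4 were lowest in replicate 3. Irf7, which amplifies interferon production, was at 84.8, 97.0 and 45.8 TPM, and Irf5 did not vary beyond sampling noise. Among 8 adaptors and the DNA sensor, Tmem173 (STING) was highest at 262, 295 and 195 TPM, and 5 of the 8 were lowest in replicate 3. Tbk1, Myd88 and Traf3 were highest there instead. The ISG15 conjugation partners Uba7, at 103, 181.5 and 98.4 TPM, and Ube2l6, at 65.1, 59.4 and 28.4 TPM, were lowest in replicate 3. For Uba7 replicates 1 and 3 were close, with deviations of -0.15 and -0.25. In the second quantification Uba7 was at 47.4, 88.9 and 50.1 TPM, with replicate 1 lowest. Of the 5 brakes, Irf2 was highest at 145, 168 and 90.9 TPM, and the phosphatase gene Ptpn6 was at 113, 175 and 75.6 TPM. Socs1 and Socs3, which block the kinases, were the brakes highest in replicate 3, Socs1 at 3.12, 2.84 and 6.45 TPM.

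**Figure D5:**
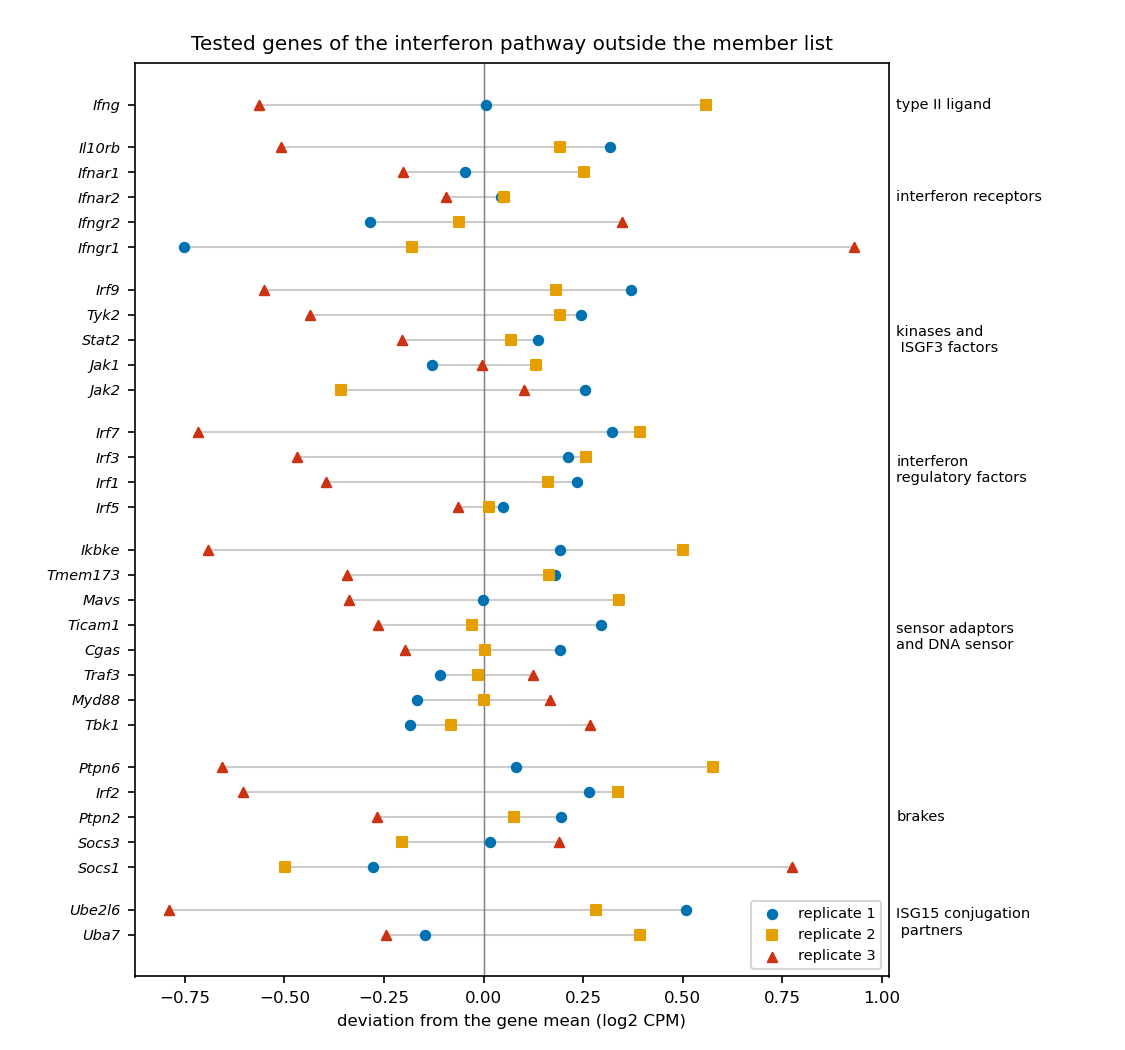
Deviation of each library from the gene mean (log2 CPM) for the 30 tested pathway genes, by role. Replicate 3 is lowest for 21 of the 30 genes and highest for 7, Ifngr1 and Socs1 among them.

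Members with and without the ISRE core in their window were set side by side, with no test. The gap between the highest and the lowest library had a median of 1.02 (log2) in the members with a match and 0.94 in those with a window and no match. The median deviation of replicate 3 was -0.54 and -0.55. Replicate 3 was lowest in 13 of 16 genes with a match, where Ifitm2 and Ifitm3 were exceptions and Oas1g was too low to test, and in 18 of 19 without, where Samhd1 was the exception. Ifitm2 thus held a match and was highest in replicate 3, while Isg15, Ifit1 and Oas1a, printed above, held 3, 2 and 2 matches and were lowest there.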

How the data were processed

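PolyA-selected RNA was measured in 3 libraries, grouped by the cell type in the labels. Per the file headers and the deposit's notes, the authors deposited gene and transcript tables of expected counts and TPM on mm10 with gene models of release M21, with each transcript's percent of its gene and the posterior SD of each count. The authors also deposited a second set of estimated (expected) transcript counts and TPM, made from the reads and an index, and whole-number gene counts on release M4. No source names the programs.

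Of 81881 entries in the main table, 55536 were mouse genes. The other 26345, which held 0.0873% to 0.166% of the counts, were left out. M4 genes were matched by ID (22195 of 22457). Expected counts were rounded and scaled by TMM (edgeR 4.0.16, R 4.3.3) to effective library sizes. The 12997 genes averaging 10 counts or more were tested by a chi-square with 2 degrees of freedom, once against sampling noise and once with edgeR's trended dispersion added (SciPy 1.17.1), with Benjamini-Hochberg adjustment at 0.05 over all of them. Deviations are log2 CPM (prior count 2) minus the gene mean. edgeR's quasi-likelihood test was not used because there is 1 group. DESeq2 1.42.0 size factors, total counts, both other quantifications, a looser filter, log2(TPM + 1) and leaving out each library were alternatives. The test against sampling noise was run on simulated counts with known changes and sampling noise alone. Its behaviour under a wider spread, as in these libraries, was therefore not checked, nor was the test with trended dispersion. Words of 31 bases shared between transcripts of different genes and the ISRE core in RefSeq windows (GRCm38.p6) were counted by exact match.

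Members and lists were chosen with earlier results of these data known. In each class the text names the highest and the lowest member by mean TPM, the one with the widest ratio between libraries and those past the stricter test. Of the pathway it names the highest gene of each group and those past that test. Other genes are given by level. A gene of the pathway is not reported here. Precision follows the depth of 10981924, 9700630 and 6667391 counts. Intervals and floors cover counting error only.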

Additional observations from a re-analysis of the deposited data

How the results depend on the processing

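The lowest place of replicate 3 held for 39 to 41 of the members tested under total counts, DESeq2 size factors, all genes with any count, both other quantifications and log2(TPM + 1), and for 31 of the 32 members with under 10% of their 31-base words in other genes, an alternative chosen after seeing the data. Under these settings Ifitm2, Ifitm3 and Samhd1 were exceptions, except that the 32 members leave out Ifitm2 and Ifitm3. Oas1g, with 1.78 counts in all, joined them with all genes with any count, Trim25 on log2(TPM + 1) and in the M4 counts, and Ifit3 in the M4 counts. In these settings replicate 3 was lowest in 29.1% to 41.5% of all tested genes. The TPM of the second quantification was not among them. On that scale replicate 1 was lowest for Ddx58, Dtx3l, Herc6, Mx1, Samhd1 and Trim25, narrowly so for Dtx3l and Herc6. Replicate 3 was lowest for most other members. Replicate 3 carried most of the variation. Members varying beyond sampling noise numbered 22 to 41 when 1 library was left out (main value 42), with 22 without replicate 3, 41 without replicate 1 and 39 without replicate 2. Of all tested genes 31.9%, 51.5% and 53.9% varied without those libraries, in the same order. Over all genes the noise test called 8493, and 4187 without replicate 3. With the edgeR trended dispersion 2 members were called, Ifit1 and Ifitm2, but 0 with all genes with any count (10 at an unadjusted p below 0.05). The 32 members with few shared words leave out both, as Ifit1 shares 10.5% and Ifitm2 55.5% of its words. Their count of 0 (5 at an unadjusted p below 0.05) therefore says nothing of these 2 calls. The count of members called was 0 to 0 when 1 library was left out, with 7, 11 and 5 at an unadjusted p below 0.05 without replicates 1, 2 and 3. The share of all genes at an unadjusted p below 0.05 was not counted in these alternatives. Their unadjusted member counts therefore have no background to be read against. The second quantification called Ifit1 and Oas1a, and the M4 counts Ifit1, Ifitm2 and Isg15. Over all genes this test called 170, and 21, 43 and 42 without replicates 1, 2 and 3.

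Members lowest in replicate 1 numbered 1 with any count (47.65% of all tested genes), 1 in the M4 counts (30.5%) and 2 on log2(TPM + 1) (39.2%). They numbered 3 to 13 when a library was left out (main value 0). Those lowest in replicate 2 numbered 3 to 31 when a library was left out, and 1 with few shared words (28.9%). With a library left out, each remaining library was lowest in about 50% of all tested genes. Members highest in replicate 2 numbered 20 on log2(TPM + 1), against 21 for replicate 1, and 13 to 40 when a library was left out. Those highest in replicate 3 numbered 1 with few shared words. The share of all genes highest in each library was not counted for log2(TPM + 1) or few shared words. The median deviation of replicate 1, 0.372, was 0.232 on log2(TPM + 1) and 0.0841 without replicate 3. That of replicate 2 turned to -0.0841 without replicate 3 and ranged from -0.0841 to 0.355 when a library was left out. With 2 libraries the deviations mirror each other, so the negative value of replicate 2 without replicate 3 follows from the centring. Replicate 1 stayed above replicate 2 in that setting and was highest in 31 of 44 members. On log2(TPM + 1) the median deviation of replicate 2, 0.265, was above that of replicate 1. The order of replicates 1 and 2 therefore depended on the scale. The median level, 4.94 on log2(TPM + 1), was 4.16 in the second quantification, where the mean TPM of 29 of 45 members moved by more than 1 SD. The cause was not tested. No paired analysis was possible because the samples form 1 group. Low counts limit Oas1g, Ifitm1, Oasl1, Oas2, Parp12 and Ifi44, whose ratios rest on few fragments in replicate 3.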

Other observations

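Relatives of the members outside the list did not all follow the common order. Phf11a, Trim30d and Ifi27l2b were read because each shares more 31-base words with a member than any other gene does. Ifit1bl1, Oas1b, Oas1c and Phf11d were picked by name. Ifit1bl1, beside Ifit1, was at 72.7, 71.2 and 27.0 TPM in replicates 1, 2 and 3, and Oas1b, a relative of Oas1a, at 13.1, 12.1 and 4.66 TPM. Trim30d was at 21.2, 22.9 and 13.2 TPM, and Phf11a at 31.7, 35.1 and 19.7 TPM. Oas1c was instead at 8.79, 10.2 and 11.1 TPM, with replicate 3 highest. Phf11d, at 6.15, 8.02 and 6.23 TPM, had replicate 2 highest. Ifi27l2b, the neighbour of the most abundant member, had 0 counts in every library.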
